A study of Mus musculus with 2 samples.

Results

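The genes described here are 10 muscle-enriched members of the ubiquitin ligase machinery: the F-box genes Fbxo32 and Fbxo40, the TRIM genes Trim54, Trim55 and Trim63, the ASB genes Asb2 and Asb5, and the Kelch genes Klhl31, Klhl40 and Klhl41. They were taken by name, as every probe set that the platform annotation assigns to 1 of them, which gave 11 probe sets for 10 of the 19938 genes on the array. The lower jaw (mandible) of BALB/c mouse fetuses was profiled at E18.5, an embryonic age close to birth. A wild-type sample was put on 1 Affymetrix array and a BALB/c sample labelled as null for Myf5 and for MyoD on another, each from 6 µg of total RNA. How many embryos were pooled per sample is not stated in the labels. Each genotype has 1 array, so every difference compares these 2 arrays, has no replicate check and carries no p-value.

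Ubiquitin ligases choose which proteins are tagged for the proteasome. Cullin-RING ligases do this through exchangeable adaptors: F-box proteins dock on Cul1 through Skp1, BTB-Kelch proteins on Cul3 and SOCS-box proteins, such as the ASB family, on Cul5 through elongins, whereas TRIM proteins carry their own RING domain. In striated muscle the adaptors act on the contractile apparatus. MuRF proteins (the muscle TRIM group) sit on titin and microtubules, KLHL40 and KLHL41 protect nebulin and thin-filament proteins, and atrogin-1 (Fbxo32) and MuRF1 (Trim63) are known as the ligases that rise when adult muscle wastes. Myf5 and MyoD are the transcription factors that set myoblast identity, and mouse fetuses without the pair have no skeletal muscle.

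The stretches of DNA before the start sites of 4 of the genes are shown because these genes differ in whether they hold the letters that MyoD-family and MEF2 factors prefer. The sequences are RefSeq's, assembly GRCm38.p6, each the 250 bases before the start site, written 5′ to 3′ on the gene's strand. Capitals mark CAGCTG, the E-box form preferred by MyoD, and, in Klhl41, a match to the MEF2 element as defined below the sequences. Klhl41 comes first, then Klhl31, which holds no capital, and then the TRIM genes Trim54 and Trim63.
Klhl41 (chr2:69669870-69670119, plus strand): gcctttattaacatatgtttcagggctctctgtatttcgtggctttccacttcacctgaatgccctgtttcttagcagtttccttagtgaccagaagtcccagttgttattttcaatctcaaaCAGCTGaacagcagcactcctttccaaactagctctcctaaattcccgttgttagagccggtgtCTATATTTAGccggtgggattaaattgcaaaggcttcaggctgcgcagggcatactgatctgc
Klhl31 (chr9:77636482-77636731, plus strand): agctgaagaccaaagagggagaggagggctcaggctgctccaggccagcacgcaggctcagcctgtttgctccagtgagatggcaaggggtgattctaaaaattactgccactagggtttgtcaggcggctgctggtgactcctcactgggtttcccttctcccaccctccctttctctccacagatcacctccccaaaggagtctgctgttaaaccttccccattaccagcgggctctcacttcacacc
Trim54 (chr5:31116362-31116611, plus strand): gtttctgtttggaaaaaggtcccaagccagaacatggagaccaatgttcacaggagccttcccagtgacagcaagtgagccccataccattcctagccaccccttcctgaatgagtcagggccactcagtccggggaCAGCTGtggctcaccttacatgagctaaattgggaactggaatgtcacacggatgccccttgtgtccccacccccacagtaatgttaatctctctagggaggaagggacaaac
Trim63 (chr4:134314870-134315119, plus strand): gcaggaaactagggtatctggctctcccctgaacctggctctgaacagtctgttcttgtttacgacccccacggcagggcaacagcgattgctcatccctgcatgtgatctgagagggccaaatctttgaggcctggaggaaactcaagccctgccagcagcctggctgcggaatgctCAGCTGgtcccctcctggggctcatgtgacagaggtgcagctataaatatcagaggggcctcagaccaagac
The table held windows for 8 of the 10 genes, 12 windows in all, since genes with several start sites have several. CAGCTG, which reads the same on both strands, stood in 6 of the 12 windows (50%), against 13% of the 32851 windows of all genes. Windows of 1 gene are not independent. By gene, it stood in 5 of the 8 with a window, against 14.7% of all genes with a window. In Klhl41 it began 127 bases before the start, in Trim54 113 bases and in Trim63 72 bases. In Klhl40 it began 10 bases before the start, Fbxo40 had copies 81 and 53 bases before its upstream start and 89 bases before its other start, and the windows of Klhl31, Asb2 and Asb5 held none. The MEF2 element was searched on both strands in a strict form, CTA, then 4 letters that are A or T, then TAG. Among the 12 windows it was in 1, that of Klhl41, 63 bases before the start and not overlapping the E-box, and it was in 0.508% of all windows. The wider consensus, which also allows T as the first letter and A as the last, was in 3 of the 12 windows and in 2.92% of all windows. These were Klhl41 at the same place, Fbxo40 101 bases before its upstream start and Asb5 81 bases before 1 of its starts. These are matches of letters and do not show that a factor binds there.

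The deposited values are log2 signals. The file carries no detection calls, so each array's median over gene-annotated probe sets served as a floor (6.18 for the wild type, 6.19 for the double knockout), and signals under it are treated as not told apart from background. Where 1 side lay under the floor it was raised to it and the fold is written as "at least". The targeted genes were both lower on the array labelled double knockout. Myf5 gave 6.31 in the wild type, just above the floor of 6.18, and 4.95 in the double knockout. Myod1 gave 7.14 and 6.49, 1.58-fold lower, and so stayed above the floor in the sample labelled as null. Whether these probe sets lie inside the deleted parts is not stated in the labels. Pearson's r between the arrays was 0.980 across probe sets, and the median difference of the measured genes was 0.098. Brightness also depends on the probes, so folds are taken within a probe set, and sums of signals over a list are given to set the arrays, not the lists, side by side.

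Without Myf5 and MyoD, 9 of the 10 genes had a lower signal and 1, Fbxo32, a slightly higher one. On the wild-type array 9 of the 10 lay above the floor, all but Trim63. On the double-knockout array Fbxo32 alone did. In the deposited values, to which no filter on low signals was applied, 9 of the 10 were at least 2-fold lower, where 2.16% of all 19938 genes were. None was 2-fold higher, where 0.391% of all genes were. The median of the 10 deposited differences was -2.41, and that of all genes 0.06. With the floor, 4 of the 10 were called at least 2-fold lower (Klhl41, Klhl31, Asb2 and Trim55) and 0 higher, beside 2.73% and 0.51% of the 10393 genes measured on at least 1 array. The wild-type signal sets how large a bounded fold can be: those 4 were the only members whose wild-type signal exceeded the floor at least 2-fold, and the other 6 could not have been called lower. Among all 6609 genes with that much room, 4.3% were at least 2-fold lower. In tissue RNA, fewer cells of a type and less RNA per cell cannot be told apart.

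**Figure D1:**
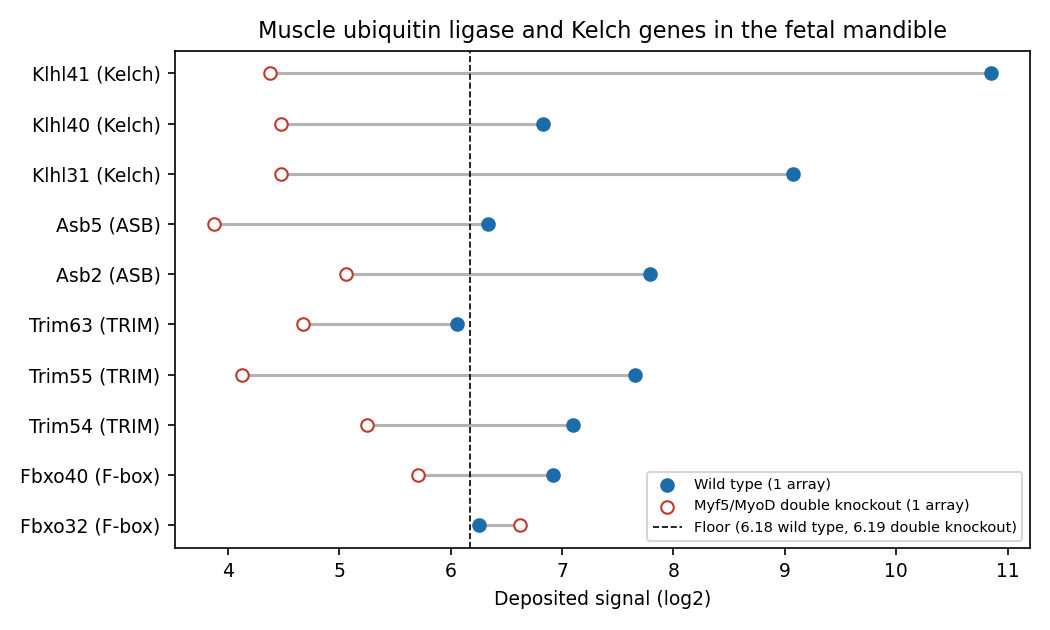
Deposited log2 signal (x axis) of each of the 10 genes on the wild-type array (filled) and the double-knockout array (open), 1 array per genotype, with the wild-type floor as a dashed line. In 9 genes the open point lies to the left of the filled one and below the floor, and in Fbxo32 it lies to the right, at 6.62 against 6.26.

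The Kelch group held the 2 widest deposited gaps. Klhl41, the Kelch protein that binds nebulin and keeps it from aggregating, gave 10.85 in the wild type against 4.38 in the double knockout, at least 25.3-fold lower. Its deposited values alone differ by -6.47. Klhl31, a BTB-Kelch protein known from mouse knockouts to be needed for postnatal muscle growth and sarcomere structure, gave 9.08 and 4.48, at least 7.40-fold lower. It was the only member with more than 1 probe set, and the other probe set gave 8.88 and 3.40, so both ran the same way, with deposited differences of -4.59 and -5.48. Klhl40, which stabilises nebulin and leiomodin 3 in the thin filament, gave 6.83 and 4.48. Its wild-type value lay 0.65 above the floor, which leaves a bound of at least 1.56-fold lower against a deposited difference of -2.35. All 3 Kelch genes thus passed the floor in the wild type and lay well under it in the double knockout.

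Both ASB genes were lower in the double knockout as well. Asb2, the SOCS-box adaptor that brings filamins to Cul5 and whose longer form is made in muscle, gave 7.79 in the wild type against 5.06 in the double knockout, at least 3.04-fold lower. Asb5, an ankyrin-repeat and SOCS-box gene of skeletal muscle, gave 6.34 and 3.88. It was only 0.16 above the floor in the wild type, so the bound is at least 1.11-fold lower although the deposited values differ by -2.46. Asb2 also has a shorter form in blood cells, and which form the probe set reads is not stated in the files. Of 10 blood and immune markers, 4 passed the floor on 1 or both arrays, and 0 were at least 2-fold apart. The pan-leukocyte gene Ptprc was below the floor on both arrays (5.47 and 5.74), the macrophage genes Cd68 and Csf1r were 1.82-fold and 1.49-fold higher in the double knockout, Itgam was at least 1.15-fold higher and Lyz2 1.06-fold lower. The 10 markers had a median deposited difference of 0.05, with 5 of them below 0, and their summed linear signal was 1345 in the wild type against 1999 in the double knockout. The part of blood cells in the Asb2 difference was not tested.

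Of the MuRF genes, Trim55 (MuRF2), which links titin and the microtubules of forming myofibrils, gave 7.66 in the wild type against 4.13 in the double knockout, at least 2.77-fold lower. Trim54 (MuRF3), which binds and stabilises microtubules in muscle cells, gave 7.10 and 5.25, at least 1.88-fold lower. Trim63 (MuRF1), the ligase of myosin and other thick-filament proteins, gave 6.06 and 4.68. Both Trim63 values lie under the floor, so no fold is given and its deposited difference of -1.38 lies between values at background level. Trim55 and Trim54 thus passed the floor in the wild type, and none of the 3 passed it in the double knockout.

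The F-box genes differed from each other in direction. Fbxo40, a muscle adaptor reported to target the insulin receptor substrate Irs1, gave 6.92 in the wild type against 5.71 in the double knockout, at least 1.66-fold lower. Fbxo32 (atrogin-1) gave 6.26 and 6.62, 1.28-fold higher, and was the only 1 of the 10 genes above the floor on both arrays. That difference of 0.36 compares with a median of 0.098 over measured genes and an SD of 0.23 between a gene's 2 brightest probe sets. The SD is of their disagreement in log2 difference, taken about 0 over 532 genes with 2 probe sets or more above both floors. It leaves out probe sets under the floor. The wild-type signal of Fbxo32 lay 0.08 above the floor, and with 1 probe set and 1 array per genotype the direction has no check. Fbxo32 was 0.26 higher when all genes were centred on a difference of 0.

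**Figure D2:**
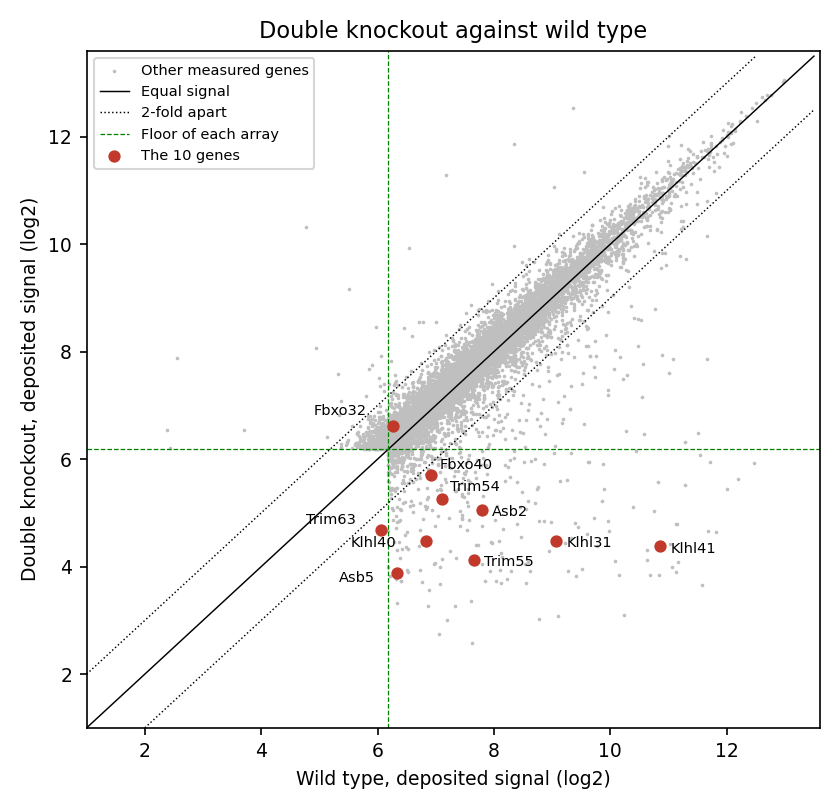
Deposited log2 signal of the 10393 genes measured, wild type on the x axis and double knockout on the y axis, with the 10 genes in red, where Trim63 lies below both floors (dashed lines). Klhl41 and Klhl31 lie far to the lower right, the other lower members lie under the double-knockout floor with wild-type signals between 6.06 and 7.79, and Fbxo32 lies close to the line of equal signal.

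Relatives of these genes were examined by symbol, leaving out the 10. Over all measured genes 2.73% were at least 2-fold lower and 0.51% higher. Of 42 other Kelch genes (Klhl and Kbtbd), 26 were measured, and 0 were at least 2-fold lower or higher. Their deposited differences had a median of 0.01, and 2 were at least 2-fold lower in deposited values. These were Klhl30 (6.85 and 5.11, at least 1.58-fold lower with the floor) and Klhl38 (7.08 and 5.43, at least 1.86-fold lower), both named after their values were seen. Of 16 other ASB genes, 7 were measured and 1 was at least 2-fold lower, Asb12, which gave 9.09 in the wild type against 3.08 in the double knockout, at least 7.50-fold lower. Asb11 was also at least 2-fold lower in deposited values (5.42 and 4.03), with both under the floor, and was named after its values were seen. The median deposited difference of the 16 was -0.31.

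Of 56 other TRIM genes, 26 were measured and 1 was at least 2-fold lower: Trim72 (MG53), a membrane-repair protein of striated muscle, gave 7.80 and 4.04, at least 3.07-fold lower. The median deposited difference of the 56 was 0.10. Of 69 other F-box genes (Fbxo, Fbxl and Fbxw), 41 were measured and 0 were at least 2-fold apart, with a median deposited difference of 0.06. In deposited values Fbxl22, an F-box gene of the striated muscle Z-disc, differed by -1.19 with both values under the floor (6.07 and 4.88). Fbxl22 was named after its values were seen. Across the 4 families 0 relatives were at least 2-fold higher. Deposited differences within 0.5 of 0 were seen in 66 of the 69 F-box, 50 of the 56 TRIM and 35 of the 42 Kelch relatives, but in 9 of the 16 ASB relatives, of which the other 7 were all lower.

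**Figure D3:**
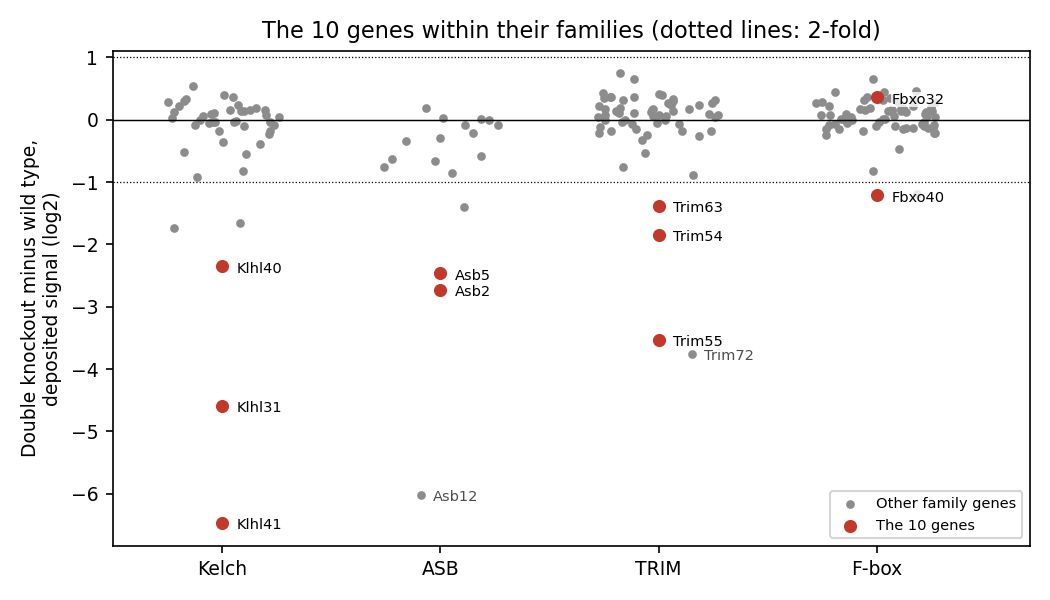
Double knockout minus wild-type deposited signal (log2, y axis) for the Kelch, ASB, TRIM and F-box families (x axis, points spread sideways for legibility), 1 point per gene, with the 10 genes in red and dotted lines at 2-fold. Klhl41 (-6.47) and Asb12 (-6.02) lie lowest, and most grey points lie between the dotted lines.

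The machinery that these adaptors plug into was examined by list. Over all measured genes 2.73% were at least 2-fold lower and 0.51% higher. Counts of 0 in lists of 25 to 31 genes lie near those shares and do not set the lists apart from other genes. None of 29 genes of the cullin-RING core (cullins, linkers, RING subunits, neddylation and COP9) was at least 2-fold apart, and their median deposited difference was -0.09. Cand2, the muscle form of the cullin exchange factor, was 1.65-fold lower (8.08 and 7.36), Cops8 1.31-fold lower and Rnf7, the RING partner of Cul5, 1.27-fold lower, whereas Cul4b was 1.42-fold higher. Among 25 genes of ubiquitin, its activating E1 and its conjugating E2 enzymes, 0 were at least 2-fold apart and the median was 0.11. The widest were Ube2c (1.31-fold higher), Ube2g2 (1.30-fold lower), Ube2b (1.26-fold lower) and Ube2e3 (1.24-fold higher). The 31 proteasome genes had a median of 0.01 and 0 at least 2-fold apart. Psmd6 was 1.37-fold lower, Psma1 1.30-fold higher, Psmc4 1.16-fold higher and Psmc3 1.15-fold lower.

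Of 25 other E3 ligases, deubiquitinases and helpers studied in muscle, 21 were measured, 1 was at least 2-fold lower (Trim72, above) and 0 higher, and the median deposited difference was 0.06. Trim32 was 1.35-fold higher, Itch 1.25-fold and Fbxo21 1.24-fold. In the list of autophagy and lysosomal proteolysis 20 of 21 genes were measured and 0 were at least 2-fold apart, with a median of 0.07. That count too lies near the share over all measured genes. The lysosomal regulator Tfeb was 1.39-fold lower, Map1lc3a 1.36-fold lower and the calpain Capn1 1.25-fold lower, while Map1lc3b was 1.21-fold higher.

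Genes reported as substrates or partners of the 10 ranged from far lower to less than 2-fold apart. Of the 20 with a probe set, all measured, 13 were at least 2-fold lower and 0 higher, with a median deposited difference of -4.19. The partners of KLHL40 and KLHL41 were among them: nebulin (Neb) gave 11.07 in the wild type against 4.001 in the double knockout, at least 29.4-fold lower, leiomodin 3 (Lmod3) 8.29 and 3.92, at least 4.29-fold, and Nrap 8.86 and 4.85, at least 6.38-fold. The titin gene Ttn, the scaffold of the MuRF proteins, gave 11.02 and 4.42, at least 28.5-fold lower. Creatine kinase (Ckm) was at least 46.0-fold lower, the light chain Myl1 at least 42.0-fold and the intermediate filament gene Des 31.1-fold.

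The filamins, targets of ASB2, differed in opposite directions. Flnc, the muscle filamin, gave 10.56 and 7.77, a 6.92-fold lower signal that passed the floor on each array, whereas Flna, made in most cells, gave 10.40 and 10.72, 1.25-fold higher. Substrates that are made in most cells lay near 0: Eif3f, reported as a target of atrogin-1, differed by 0.15, Irs1 by -0.20, Sqstm1 by -0.04 and Nbr1 by 0.18. Of the substrates named, Ckm, Myl1, Des and Neb are the 4 widest of the list with the floor applied. The others were chosen after their values were seen.

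**Figure D4:**
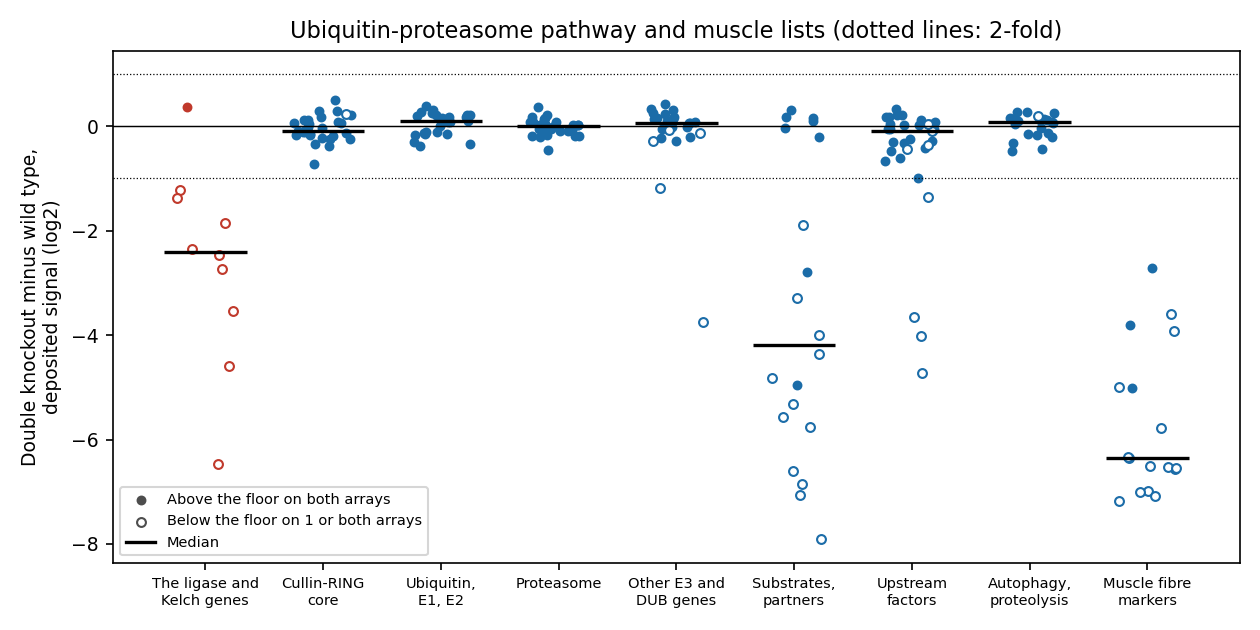
Double knockout minus wild-type deposited signal (log2, y axis) for the 10 genes (red) and 8 lists (blue), 1 point per gene, filled where both arrays lie above the floor, with the median as a bar and dotted lines at 2-fold. The cullin core, ubiquitin enzyme, proteasome and autophagy genes all lie between the dotted lines, while 13 of 20 substrates and all 17 muscle fibre markers lie below them also with the floor applied (14 of 20 without it).

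Signals and transcription factors reported upstream of the 10 genes were mostly close together on the arrays. Of 31 with a probe set, 28 were measured, 3 were at least 2-fold lower and 0 higher, with a median deposited difference of -0.10. In deposited values 4 were at least 2-fold lower, Myf5 being added. The list holds both targeted genes, Myf5 and Myod1. The myogenic factor Myf6 gave 8.63 and 3.91, at least 5.43-fold lower, myostatin (Mstn) 7.93 and 3.91, at least 3.34-fold, and myogenin (Myog), which is reported to bind the Fbxo32 and Trim63 promoters in denervated muscle, 7.70 and 4.05, at least 2.85-fold. Mef2c was 1.995-fold lower (10.05 and 9.05), just inside the 2-fold line. The FoxO factors, which drive atrogin-1 and MuRF1 in wasting muscle, were named after their values were seen: Foxo1 differed by 0.22, Foxo3 by 0.17 and Foxo4 by -0.24.

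Markers of the cells that could hold these transcripts differed in unequal degree. All 17 markers of skeletal muscle fibres were at least 2-fold lower, and 3 of them (Pygm, Actn3 and Eno3) stayed above the floor in the double knockout. Their summed linear signal was 42855 in the wild type against 933 in the double knockout. For the 10 ligase and Kelch genes the sum was 3406 and 345. Klhl41 (10.85) had their brightest wild-type signal, and all but Fbxo32 lay under the floor in the double knockout. The sums of the fibre markers and of these genes are therefore not compared with each other. Actc1 was at least 77.8-fold lower, Acta1 at least 64.5-fold, Tnnt3 at least 56.3-fold and Atp2a1 at least 49.5-fold. All 10 markers of myogenic progenitors passed the wild-type floor, and with the floor 2 were at least 2-fold lower and 0 higher. The 2 were the fusion gene Mymk (at least 12.8-fold) and Itga7 (at least 2.57-fold). In deposited values 5 of the 10 were at least 2-fold lower, with a median difference of -1.04. This added Pax7, Myf5 and Mymx, whose wild-type signals (6.25, 6.31 and 6.34) lay too near the floor to be called lower. Cdh15 was 1.89-fold lower and Pax3 1.59-fold higher. The summed linear signal was 2188 and 889, in which Mymk (9.86 and 5.21) had the brightest wild-type signal. The list also holds Myf5 and Myod1, the targeted genes. The part of the lower fibre signal in each member's difference was not tested.

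Heart muscle also makes several of the 10 genes. Of 10 heart markers, 7 lay under the floor on each array, among them the defining Myh6 (4.40 and 4.34) and Nppa (4.37 and 4.33). Of the other 3, Myl4, which fetal skeletal muscle also makes, was at least 40.8-fold lower, Hand2 1.79-fold higher and Nkx2-5 1.27-fold lower. The summed linear signal of the 10 was 3378 and 547, but 404 and 480 without Myl4, and their median deposited difference was -0.05 (-0.04 without Myl4). Among 9 smooth muscle markers, 1 was at least 2-fold lower, Des, which skeletal muscle shares. Acta2 was 1.91-fold lower, Actg2 1.65-fold lower and Mylk 1.498-fold higher. The sum was 6036 and 2441, or 3541 and 2360 without Des, and the median deposited difference was -0.26 (-0.17 without Des).

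The genes whose deposited values on the 2 arrays came closest to the median of the 10 (7.01 and 4.58) were, by Euclidean distance on the log2 scale, Cav3 (0.18), Lrtm1 (0.25), Smtnl1 (0.31), Srpk3 (0.36) and Art3 (0.37). Cav3, the muscle caveolin, gave 6.98 in the wild type against 4.75 in the double knockout. With 2 arrays this likeness rests on 2 values per gene, in probes whose brightness differs, and describes the signals only.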

How the data were processed

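The deposited table holds a log2 signal per array for 35557 probe sets. The base of 2 is inferred from the top value of 13.35. The submitters' processing notes name MAS5 without a version. MAS5 usually gives linear values, and the log step, background correction, normalization between arrays and genome build are not given in the sources used here. Arrays were compared as deposited, since the 2% trimmed means of linear values lay within 5% of each other (ratio 1.02). If the authors had equalised the arrays this would hold in any case.

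GEO's platform annotation named 1 gene for 21789 probe sets, several for 1621 and none for 12147. Only the first kind was used. Of 19938 genes, 19856 were found by Entrez identifier in the RefSeq table (0 symbols changed). Where a gene had several probe sets, the brightest by mean linear signal stood for it. Of 259 genes in 13 lists, 245 had a probe set of their own. Named are the 10 genes, the 4 widest measured genes of each other list, family genes at least 2-fold apart and the 5 nearest to the members' median. Width was taken from differences with the floor applied. Names outside this rule are marked, apart from the marker genes and heart markers at background level, which were also chosen after their values were seen. The members and lists were chosen with earlier results of these data known. Alternatives were other floors, scalings, fold thresholds and the median over probe sets. The procedure was tested on simulated data in which changes were planted only in genes far above the wild-type floor. That test does not cover calls limited by the floor. Analysis used Python 3.11.15, numpy 2.4.6 and pandas 2.3.3. The number of arrays limits the precision.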

Additional observations from a re-analysis of the deposited data

How the results depend on the processing

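In every setting run, 0 of the 10 genes were at least 2-fold higher, and each member kept the direction of its difference wherever it was measured. All settings reuse the same 2 arrays, so a kept direction is no independent check of it. The floor sets the counts by construction. The members at least 2-fold lower numbered 9 (median difference -2.25) under a floor at percentile 25, and 7 (median -1.52) when all probe sets entered the floor's median. They numbered 9 (median -2.41) without a floor and 2 of 3 measured (median -1.30) under a floor at percentile 75, where Asb2 differed by -0.02. The floored values in the report gave 4 (median -0.91 over 9 genes). Centring all genes on a difference of 0 gave 5, Trim54 being added. At 1.5-fold 7 members were lower and at 3-fold 3. Over all measured genes, those lower and higher were 134 and 20 under the floor at percentile 75, 531 and 319 at 1.5-fold, and 161 and 18 at 3-fold. Without a floor 431 were lower. The share of all measured genes at least 2-fold lower was 2.68% under the floor at percentile 25. It was 2.81% with all probe sets in the floor's median, 2.16% without a floor and 2.61% under the floor at percentile 75. After centring it was 3.07%, beside 2.73% for the floored values in the report. At 1.5-fold 5.11% were lower and at 3-fold 1.55%. Taking the median over probe sets moved Klhl31 to -2.79. Signal over background limits Trim63, Asb5, Fbxo32, Klhl40, Fbxo40 and Trim54, whose wild-type values lie less than 2-fold above the floor or under it. No paired analysis was possible because each genotype has 1 array.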

Other observations

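Of the probe sets that name several genes, 12 include a gene of the lists or families examined and 0 include 1 of the 10 ligase and Kelch genes. Of the 12, 7 passed the floor on 1 or both arrays, and 0 were at least 2-fold lower or higher in the double knockout.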
